A study of Mus musculus with 8 samples.

Results

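Transcripts of 9 genes of the endoderm were followed in mouse embryonic stem cells (ESCs) and in neural precursor cells (NPCs) derived from them. The genes were chosen by name, as transcription factors of the primitive, visceral and definitive endoderm (*Gata4*, *Gata6*, *Sox7*, *Sox17*, *Foxa2* and *Hnf4a*) and as secreted products of the visceral endoderm (*Afp*, *Ttr* and *Apoa1*). All 9 were found among the 26263 genes of the count tables. The study followed the imprinted *Peg13-Kcnk9* domain during neural commitment, and its RNA-seq libraries cover ESCs and NPCs of both reciprocal crosses, as 4 groups of 2 replicates. The B/J line, BJE2, had a C57BL/6 mother and a JF1 father, whereas the parents of the J/B line, JBE6, were a JF1 female and a C57BL/6 male.

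Both lines were male, and each cross was represented by a single line, so that an effect of the cross and an effect of the line cannot be told apart. ESCs were grown on gelatin in a medium with LIF, BMP4 and a GSK3β inhibitor. NPCs were collected at day 12 of *in vitro* corticogenesis, on Matrigel, in a medium with B27 without vitamin A and with dorsomorphin homolog 1, an inhibitor of BMP receptors. The labels do not say whether replicates were separate cultures, so the p-values measure the spread between these samples, which may be technical.

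In the blastocyst, GATA6 and then GATA4, SOX17 and SOX7 set apart the primitive endoderm from the epiblast, the cells that ESCs resemble. The primitive endoderm gives the parietal endoderm, which deposits a basement membrane, and the visceral endoderm, where HNF4A drives genes of secreted carrier proteins such as *Afp*, *Ttr* and *Apoa1*. The definitive endoderm, which forms the gut, uses SOX17, FOXA2 and GATA factors again, and several of the genes also work elsewhere, FOXA2 in the floor plate of the neural tube, TTR in the choroid plexus, SOX7 and SOX17 in blood vessels and GATA4 and GATA6 in the heart.

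The reads counted on genes ran from 22537138 to 32706015 a library, so that 3 counts, taken as the limit of a count of 0, correspond to 0.0917 to 0.133 CPM (counts scaled to the same library total). Such limits and the intervals on counts cover counting error only. The stages differed in the markers of their labels: mean levels in ESCs and then NPCs were 1638 ± 305 and 31.1 ± 18.6 CPM for *Pou5f1* (SD, n = 4 libraries each), 634 ± 148 and 19.0 ± 16.9 CPM for *Nanog*, 28.9 ± 12.8 and 179.6 ± 91.6 CPM for *Nes*, and 2.66 ± 1.16 and 50.8 ± 36.3 CPM for *Sox1*. *Pax6* was at 6.96 ± 5.81 and 35.8 ± 20.9 CPM, a change that missed the threshold (adjusted p = 0.0606). In NPC B/J replicate 1, *Pax6* was at 7.95 CPM, below 2 of the ESC libraries, and 8 neural precursor genes summed to 727 CPM, inside the ESC range of 646 to 996 CPM, most of which in ESCs was *Sox2*. The 9 endoderm genes together made up 10.4 to 14.7 CPM of an ESC library, 19.3 to 26.4 CPM of a B/J NPC library and 81.0 to 83.6 CPM of a J/B NPC library. Their levels were thus low in every library, and the J/B NPCs held the highest sums. In bulk RNA, fewer cells of a type and less RNA per cell cannot be told apart.

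Changes are given as log2 fold changes of NPCs over ESCs from edgeR's quasi-likelihood test on counts normalized by trimmed mean of M values (TMM), with the standard error (SE) and the p adjusted by the Benjamini-Hochberg method over the 16399 genes that passed the expression filter. *Afp* and *Apoa1* did not pass it. Of the 7 endoderm genes tested over both crosses, *Gata4*, *Gata6*, *Sox17*, *Foxa2* and *Ttr* were called higher in NPCs, *Sox7* was called lower and *Hnf4a* was not called. Among all genes tested, 37.5% were called higher and 31.9% lower, so a call by itself does not set these genes apart. Within B/J, 3 of the 7 were called higher and 1 lower, beside 30.1% and 25.6% of all genes, and within J/B, 5 were called higher and 0 lower, beside 29.1% and 25.3%. In 5 of the 9 genes (*Gata6*, *Sox17*, *Foxa2*, *Afp* and *Ttr*), and in 4 of the 7 tested, all NPC libraries lay above all ESC libraries in CPM, as did those of 46.7% of all genes tested. The median change of the 7 was 2.93, beside 0.17 for all genes tested. With library totals that median was 0.65, and with housekeeping scaling (to *Gapdh*, *Gusb* and *Tbp*) it was 0.80, and each change moves by about as much with the scaling.

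**Figure D1:**
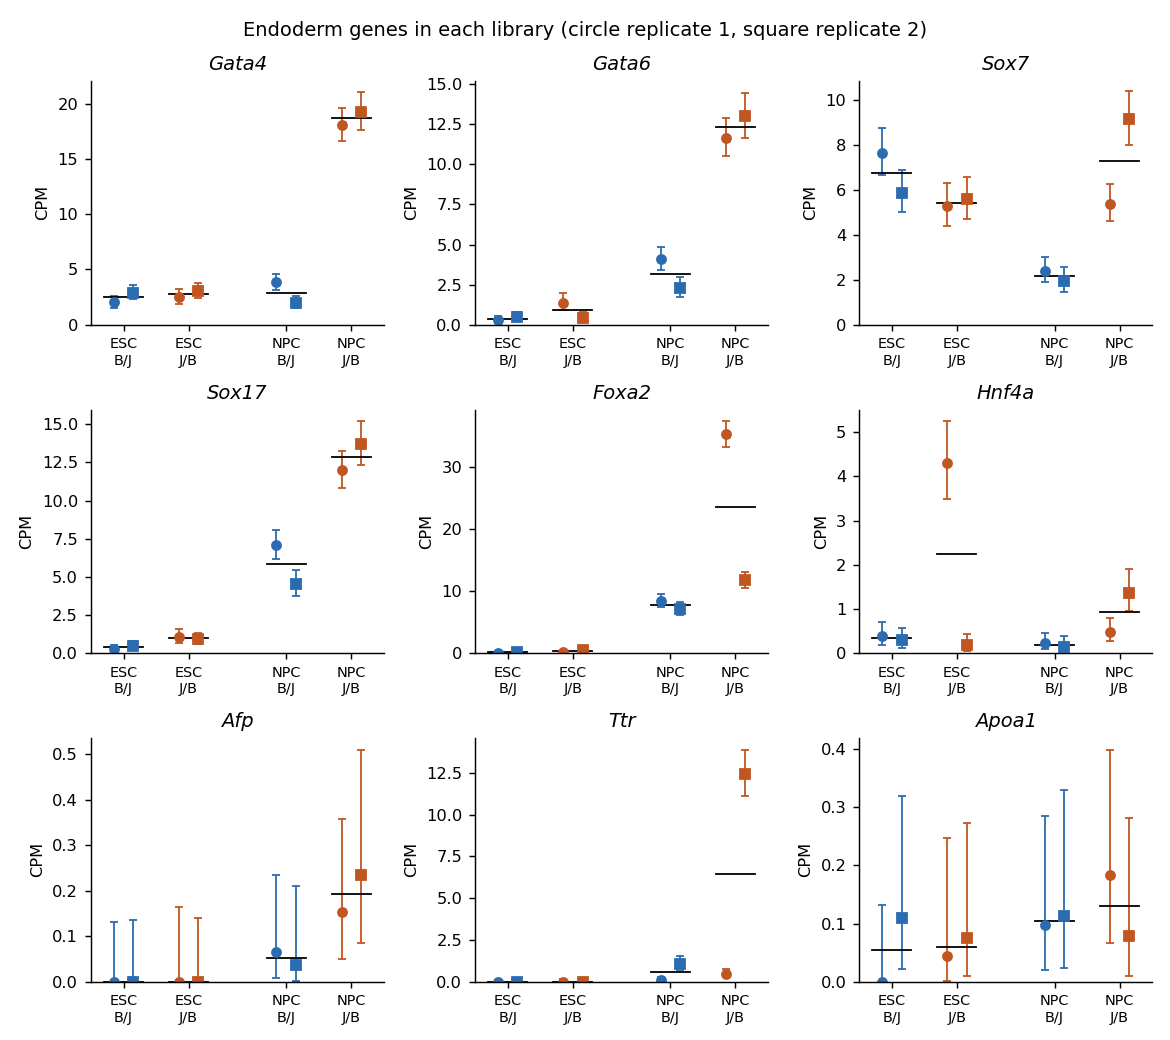
Level of each endoderm gene in every library, in CPM, with a point for each replicate, its exact 95% Poisson interval as error bar and the mean of each group of 2 as horizontal line. For *Gata6*, *Sox17* and *Foxa2* all NPC points stand above all ESC points, and the J/B NPC libraries lie above the B/J NPC libraries for 7 of the 9 genes.

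*Gata6*, a zinc finger factor that starts the primitive endoderm programme, was at 0.285 and 0.474 CPM in the B/J ESCs and at 1.38 and 0.453 CPM in the J/B ESCs. In NPCs it was at 4.09 and 2.30 CPM in B/J and at 11.6 and 13.0 CPM in J/B. Every NPC library was therefore higher than every ESC library, and the J/B NPCs were higher than the B/J NPCs. Its change was 2.93 (SE 0.473, adjusted p = 9.48e-04), a 7.62-fold rise. Within B/J it was 2.60 (adjusted p = 0.0131) and within J/B 3.25 (adjusted p = 0.00504). The B/J call was lost without ESC B/J replicate 1 (2.31, adjusted p = 0.0844) and also when NPC B/J replicate 1 was left out (2.10, adjusted p = 0.0637). *Gata6* lies on chromosome 18 (GRCm39, 11051565 to 11086995, plus strand) and shares 1154 bp of exon with *Gata6os*, an antisense gene with 0 or 1 counts in ESC libraries and 11, 3, 18 and 23 counts in NPC libraries. The use of strand in counting is not given in the sources, so reads of the shared bases may have gone to either gene.

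*Gata4*, its partner factor in primitive endoderm and heart, gave a different picture in the NPCs of each cross. In ESCs it was at 2.03 and 2.92 CPM in B/J and at 2.48 and 3.06 CPM in J/B. In NPCs it was at 3.83 and 1.99 CPM in B/J and at 18.0 and 19.3 CPM in J/B. The B/J NPCs thus overlapped the ESCs, and both J/B NPC libraries were higher than all others. Within J/B the change was 2.27 (SE 0.450, adjusted p = 0.00441), a 4.81-fold rise. Within B/J it was -0.22 (SE 0.438, adjusted p = 0.685), and its sign turned with library totals (0.24). Over both crosses it was 1.02 (SE 0.310, adjusted p = 0.0186), a call that was lost without ESC B/J replicate 1 (0.92, adjusted p = 0.0637), NPC B/J replicate 1 (0.73, adjusted p = 0.0694), NPC J/B replicate 1 (1.03, adjusted p = 0.0502) or NPC J/B replicate 2 (1.01, adjusted p = 0.0560). *Gata4* lies on chromosome 14 (63436362 to 63509141, minus strand).

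*Sox17* and *Sox7* belong to the SOXF group of factors, and *Sox17* acts in the primitive endoderm, the definitive endoderm and the endothelium. *Sox17* was at 0.285 and 0.474 CPM in B/J ESCs, at 1.06 and 0.905 CPM in J/B ESCs, at 7.08 and 4.55 CPM in B/J NPCs and at 12.0 and 13.7 CPM in J/B NPCs. The stages did not overlap, and in both stages the J/B libraries were the higher ones. The rise was 3.34 (SE 0.347, adjusted p = 1.09e-04), or 10.1-fold. It was 3.47 within B/J (adjusted p = 0.00109) and 3.21 within J/B (adjusted p = 0.00136), and the call over both crosses held in all 17 alternatives tried, with values between 3.14 and 3.96. *Sox17* lies on chromosome 1 (4561151 to 4567784, minus strand), where 1011 bp of its exons are shared with *Gm37587*, an antisense gene that has no row in the tables used here.

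*Sox7*, which follows the GATA factors in primitive endoderm, was the only one of the 7 genes tested to be called lower in NPCs. It was at 7.65 and 5.87 CPM in B/J ESCs and at 5.28 and 5.58 CPM in J/B ESCs, and at 2.40 and 1.96 CPM in B/J NPCs and 5.38 and 9.13 CPM in J/B NPCs. The B/J NPCs were lower than every ESC library, while the J/B NPCs overlapped the ESCs. Within B/J the change was -2.10 (SE 0.431, adjusted p = 0.00482), and within J/B it was -0.07 (SE 0.412, adjusted p = 0.893), with a positive sign under library totals (0.42). Over both crosses it was -1.09 (SE 0.296, adjusted p = 0.0116), but -0.61 with library totals (adjusted p = 0.0964) and -0.45 with housekeeping scaling (adjusted p = 0.235). *Sox7* lies on chromosome 14 (64181006 to 64188352, plus strand).

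*Foxa2*, a forkhead factor of the definitive endoderm, the node and the floor plate, had the largest called change with counts in both stages. It was at 0.0712 and 0.255 CPM in B/J ESCs and at 0.133 and 0.604 CPM in J/B ESCs, from 2 to 16 counts. In NPCs it was at 8.47 and 7.15 CPM in B/J and at 35.3 and 11.7 CPM in J/B, from 190 to 1153 counts. All NPC libraries were higher than all ESC libraries, and J/B replicate 1 stood far above the other NPC libraries. The change was 5.29 (SE 0.629, adjusted p = 2.14e-04), or 39.1-fold, with 5.09 within B/J (adjusted p = 0.00268) and 5.49 within J/B (adjusted p = 0.00183). Without NPC J/B replicate 1 the change over both crosses was 4.78, and without ESC J/B replicate 2, the ESC library with 16 counts, it was 6.01. Both stayed called, and the NPC mean fell from 15.7 to 9.12 CPM without NPC J/B replicate 1. *Foxa2* lies on chromosome 2 (147884797 to 147889005, minus strand).

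*Hnf4a*, a nuclear receptor and the main driver of visceral endoderm and liver secretory genes, was at 0.392 and 0.292 CPM in B/J ESCs and at 4.30 and 0.189 CPM in J/B ESCs. In NPCs it was at 0.227 and 0.150 CPM in B/J and at 0.489 and 1.37 CPM in J/B. The stages overlapped, and ESC J/B replicate 1 alone, with 97 counts beside 5 in replicate 2, held most of the ESC signal. The change of -1.55 (SE 0.910, adjusted p = 0.161) was not called, and without ESC J/B replicate 1 it was 0.26 (adjusted p = 0.763). Without ESC J/B replicate 2 it was -2.01 and called (adjusted p = 0.0162), as it was with a replicate block within each stage, a fit added after seeing the data (-2.80, adjusted p = 0.0457). It lies on chromosome 2 (163348728 to 163414830, plus strand).

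**Figure D2:**
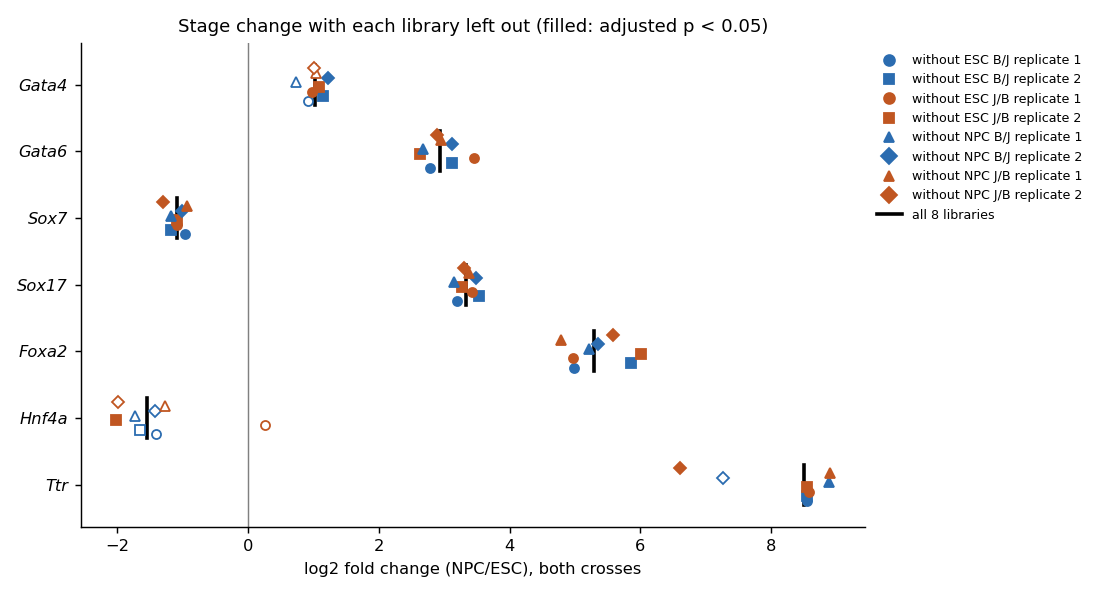
Log2 fold change of NPCs over ESCs in both crosses together, for the 7 endoderm genes tested, with all 8 libraries (black bar) and with each library left out in turn (symbols, filled where the adjusted p is below 0.05). *Hnf4a* moves from -1.55 to 0.26 without ESC J/B replicate 1, and *Sox17* stays between 3.14 and 3.53.

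Of the secreted products, *Afp* and *Apoa1* were close to the limit of the measurement. *Ttr*, which encodes the carrier of thyroxine and retinol-binding protein, had 0 counts in all 4 ESC libraries. In NPCs it was at 0.0974 and 1.05 CPM in B/J and at 0.459 and 12.5 CPM in J/B, that is 3, 28, 15 and 319 counts. All NPC libraries were above all ESC libraries, with 1 J/B library holding 319 of the 365 NPC counts. The NPC level of *Ttr* was set against a floor of 3 counts over the ESC libraries, with its NPC counts taken as observed. It was at least 109.9-fold higher by library totals, and at least 79.0-fold higher once TMM factors were applied. Without NPC J/B replicate 2 these bounds were 17.8-fold and 12.9-fold. edgeR called the rise (adjusted p = 0.0153), and the call was lost without NPC B/J replicate 2 (adjusted p = 0.0517). Within J/B the adjusted p was 0.0329. That call was lost in 4 of 18 alternatives, among them those without NPC J/B replicate 2, ESC J/B replicate 1 or ESC J/B replicate 2. Within B/J the adjusted p was 0.126, and DESeq2 called the rise there (adjusted p = 0.0194). *Ttr* lies on chromosome 18 (20797253 to 20807467, plus strand), and the antisense gene *Gm16090*, which shares 70 bp of exon with it, had at most 1 count in a library.

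*Afp*, the fetal counterpart of albumin, had 0 counts in the 4 ESC libraries and 2, 1, 5 and 6 counts in B/J replicates 1 and 2 and J/B replicates 1 and 2 of the NPCs. These are 0.0649, 0.0376, 0.153 and 0.234 CPM, so the B/J values lie below the level of 3 counts. Over all NPC libraries its 14 counts were 4.22-fold above the floor of 3 counts on library totals and 3.03-fold above it with TMM factors. These bounds take the NPC counts as observed and leave out the counting error of those counts. Within J/B these bounds were 3.08-fold and 2.21-fold, and within B/J its 3 counts equalled the floor, so that no bound above 1 can be given there. *Apoa1*, the main protein of high-density lipoprotein, had 0, 3, 1 and 2 counts in ESCs and 3, 3, 6 and 2 counts in NPCs. The groups overlapped, and the ratio of NPCs to ESCs was 2.11 on library totals, with a 95% counting interval of 0.761 to 6.69 (exact permutation of the 8 libraries, two-sided p = 0.114). For *Afp* the same permutation gave p = 0.0286, the smallest value that 4 against 4 libraries can give. *Afp* lies on chromosome 5 (90638584 to 90656766, plus strand) and *Apoa1* on chromosome 9 (46139878 to 46142212, plus strand). Neither product reached 1 CPM in any library.

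The comparison of the crosses addresses whether NPCs of both lines carried these transcripts alike. In NPCs, both J/B libraries were higher than both B/J libraries for *Gata4*, *Gata6*, *Sox7*, *Sox17*, *Foxa2*, *Hnf4a* and *Afp*, 7 of the 9 genes and 6 of the 7 tested. Such a lack of overlap in this direction held for 21.1% of all genes tested. The differences of J/B minus B/J were 2.62 for *Gata4* (SE 0.454, unadjusted p = 4.71e-04), 1.89 for *Gata6* (SE 0.617, unadjusted p = 0.0162), 1.67 for *Sox7* (SE 0.426, unadjusted p = 0.00459) and 1.08 for *Sox17* (SE 0.436, unadjusted p = 0.0386). They were 1.54 for *Foxa2* (SE 0.706, unadjusted p = 0.0623), 2.19 for *Hnf4a* (SE 1.32, unadjusted p = 0.138) and 3.45 for *Ttr* (SE 1.72, unadjusted p = 0.0950), the last of which became -0.35 without NPC J/B replicate 2. All 7 were positive, beside 51.2% of all genes. After adjustment over all genes edgeR called 0 of the 7 (adjusted p from 0.643 to 0.791) and 1 of 16399 genes, or 0.0061%, while 4 of the 7 had an unadjusted p below 0.05, as did 6.4% of all genes. A positive difference was not particular to them among the marker lists described below. It was seen for 8 of 8 neural precursor, 6 of 7 floor plate and 10 of 14 primitive and parietal endoderm genes. For trophoblast and pluripotency it was 1 of 10 and 0 of 8 genes. DESeq2 called *Gata4* (2.60, adjusted p = 3.86e-05) and 70 genes in all, and the adjusted p of *Gata4* lay between 3.86e-05 and 1.0 over its 18 alternatives.

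In ESCs, only *Sox17* had both J/B libraries above both B/J libraries, as did 14.0% of all genes, and its difference was 1.34 (SE 0.496, unadjusted p = 0.0279, adjusted p = 1.0). *Gata4* differed by 0.13 (SE 0.439) and *Sox7* by -0.36 (SE 0.413), *Gata6* by 1.24 (SE 0.682) and *Foxa2* by 1.14 (SE 0.955), none of them called. The value of *Hnf4a*, 2.70, rested on ESC J/B replicate 1 and was -0.93 without it. edgeR called 0.0% of all genes in this comparison, and 2.11% had an unadjusted p below 0.05. DESeq2 called 10 genes, with none of the endoderm genes tested among them.

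The interaction asks whether the change from ESC to NPC differed between the crosses. It was 2.49 for *Gata4* (SE 0.623, unadjusted p = 0.00422) and 2.03 for *Sox7* (SE 0.591, unadjusted p = 0.00924), taken as the J/B change minus the B/J change, which were 2.27 and -0.22 for *Gata4* and -0.07 and -2.10 for *Sox7*. It was 0.65 for *Gata6* (SE 0.919), 0.40 for *Foxa2* (SE 1.26), -0.25 for *Sox17* (SE 0.639) and -0.51 for *Hnf4a* (SE 1.88). Of the 6 genes for which it could be estimated, 0 were called by edgeR (adjusted p = 1.0 for each), beside 0.0% of all genes, and 2 had an unadjusted p below 0.05, beside 3.49% of all genes. DESeq2 called 11 genes and none of these 6. A call within one cross and not in the other, as for *Gata4* and *Sox7*, is therefore not shown by this test to be a difference between the crosses. *Ttr*, which edgeR called within J/B alone, was not among the 6.

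**Figure D3:**
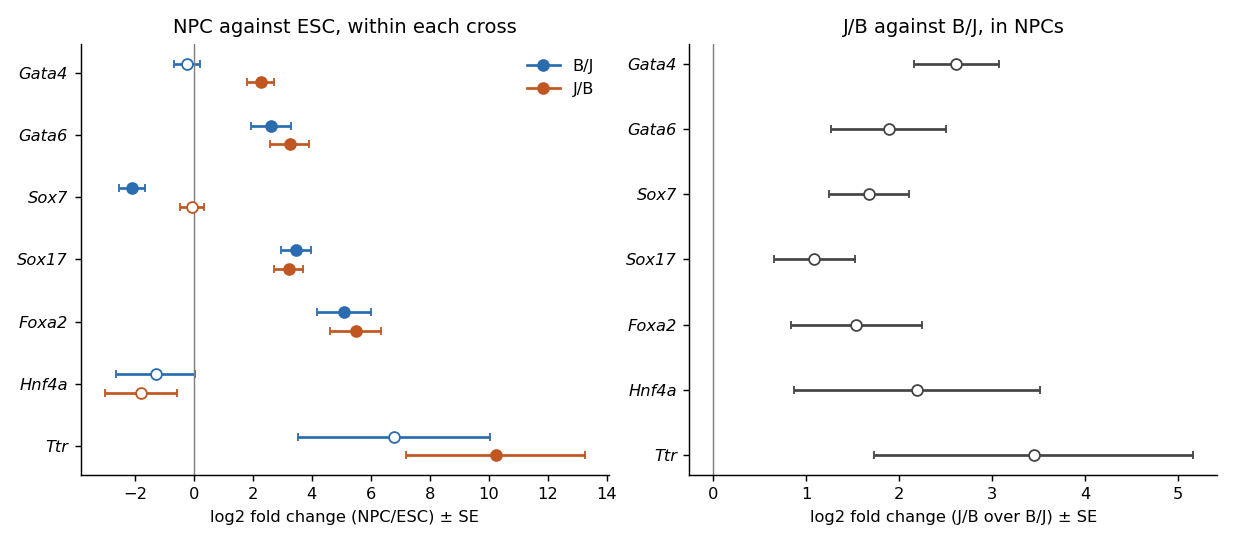
Log2 fold changes with their standard errors, for NPCs over ESCs within each cross (left) and for J/B over B/J in NPCs (right), filled where the adjusted p is below 0.05. *Gata4* and *Ttr* were called within J/B alone and *Sox7* within B/J alone, and in NPCs all 7 differences were positive and none was called. The fitted values of *Ttr* on the left depend on the prior count, since its ESC counts were 0.

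Levels were compared between genes per kilobase of exon, from TMM-normalized CPM. In ESCs, *Sox7* came first at 1.94 ± 0.386 CPM per kb (SD, n = 4 libraries) and *Gata4* followed at 0.542 ± 0.0806, and their ranges did not overlap. *Hnf4a* at 0.308, *Sox17* at 0.150, *Foxa2* at 0.0904, *Gata6* at 0.0832 and *Apoa1* at 0.0391 CPM per kb came next, each overlapping its neighbour, before *Afp* and *Ttr* at 0. The place of *Hnf4a* came from ESC J/B replicate 1, at 1.03 CPM per kb beside 0.0423 to 0.0948 in the other ESC libraries. In NPCs, *Foxa2* came first at 3.88 ± 3.23 CPM per kb, before *Gata4* (1.59 ± 1.33), *Ttr* (1.53 ± 2.59), *Sox17* (1.47 ± 0.645), *Sox7* (1.06 ± 0.728), *Gata6* (0.706 ± 0.476), *Hnf4a* (0.0927 ± 0.0910), *Apoa1* (0.0584 ± 0.0223) and *Afp* (0.0298 ± 0.0212). Every neighbouring pair in the NPC order overlapped. The place of *Ttr* in it came from a single library, at 5.40 CPM per kb beside a lowest value of 0.0448, and that of *Gata4* from J/B, since in B/J NPCs *Gata4* (0.444) came after *Foxa2* (1.99), *Sox17* (0.945) and *Sox7* (0.506).

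The wider endoderm programme was followed with lists of marker genes, whose counts of calls stand beside 37.5% of all genes called higher and 31.9% called lower. Of 14 genes of the primitive and parietal endoderm, 12 were called higher in NPCs and 0 lower, with a median change of 3.24. *Plat*, which encodes tissue plasminogen activator, rose by 7.15 (adjusted p = 9.20e-06), from 0.225 ± 0.0936 to 43.7 ± 13.4 CPM (SD, n = 4 libraries). *Col4a2*, a chain of basement membrane collagen, rose by 6.82 (adjusted p = 2.05e-05), from 7.82 ± 7.04 to 1067 ± 131 CPM. *Pdgfra*, the receptor that marks primitive endoderm, rose by 5.96, and *Dab2*, an endocytic adaptor of endoderm, rose by 3.32. *Lamc1*, a laminin chain, was at -0.08 (adjusted p = 0.751) and *Fst*, an activin antagonist, at -0.43 (adjusted p = 0.456). These genes are also used by trophoblast, vessels, mesenchyme and neural basement membranes. Their summed level was 999 to 1687 CPM in ESCs, 5003 to 6196 CPM in B/J NPCs and 6529 to 6845 CPM in J/B NPCs.

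Of 21 products and receptors of the visceral endoderm, 15 were tested, 3 were called higher, a lower share than of all genes, and 5 lower, near the share of all genes, with a median of -0.79. *Apoe*, which encodes a lipoprotein also made by many other cells, fell by 2.75 on the log2 scale (adjusted p = 2.05e-05), from 541 ± 80.3 to 113 ± 26.6 CPM. *Apoa2*, a partner of *Apoa1* in high-density lipoprotein, fell by 4.61 (adjusted p = 9.04e-05), from 13.8 to 24.0 CPM across the ESC libraries to 0.520 to 1.48 CPM in the NPC libraries. *Ahsg*, which encodes fetuin, fell by 4.81 (adjusted p = 0.00138) from at most 0.498 CPM. It had 0 counts in both B/J NPC libraries and 3 and 2 counts in the J/B NPC libraries. Its fitted value therefore depends on the prior count (-6.75 within B/J and -2.86 within J/B). *Lrp2*, which encodes the endocytic receptor megalin and is also used by neuroepithelium, rose by 2.06 (adjusted p = 0.00187), and *Spink1*, a trypsin inhibitor, rose by 2.58 (adjusted p = 0.00655). *Cubn*, the gene of the receptor that works with megalin, was at 1.28 (adjusted p = 0.0775) and *Rbp4*, whose protein travels with TTR, at 0.71 (adjusted p = 0.396). In every NPC library, 11 of the 21 genes were below 1 CPM.

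Of 11 other endoderm transcription factors, 10 were tested, 3 were called higher and 4 lower (median -0.80), shares near those of all genes. *Foxa1*, the paralogue of *Foxa2*, rose by 3.84 (adjusted p = 3.47e-04) and *Lhx1*, a factor of the node and anterior visceral endoderm, rose by 4.70 (adjusted p = 0.00719). *Mixl1*, a factor of the primitive streak, fell by 5.20 (adjusted p = 0.00612). The ESC levels of *Lhx1* and *Mixl1* rested on replicate 2 of each cross. In B/J and then J/B, *Mixl1* was at 0.392 and 0.666 CPM in replicates 1 and at 11.6 and 5.24 CPM in replicates 2. *Lhx1* was at 0 and 0.0887 CPM in replicates 1 and at 4.71 and 2.11 CPM in replicates 2.

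Among 7 genes of the anterior visceral endoderm and the Nodal pathway, 2 were called higher and 5 lower (median -3.79). *Cer1* and *Dkk1*, secreted inhibitors of Nodal and Wnt signalling, rose by 7.87 (adjusted p = 2.53e-04) and 3.62 (adjusted p = 1.57e-04). *Cer1* had 0 counts in both J/B ESC libraries, so its fitted value depends on the prior count (5.17 within B/J and 10.6 within J/B). Its mean level was 0.0905 CPM in ESCs and 8.57 CPM in NPCs. *Nodal* itself fell by 5.14 (adjusted p = 1.31e-05) and its co-receptor gene *Tdgf1* by 5.99 (adjusted p = 3.49e-05), and both are also genes of the pluripotent state.

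Of 10 genes of the definitive endoderm and gut, 7 were tested, with 4 called higher and 1 lower (median 1.65). *Tmprss2*, which encodes an epithelial serine protease, rose by 5.37 (adjusted p = 1.87e-04), and *Trh*, which encodes thyrotropin-releasing hormone, fell by 4.27 (adjusted p = 2.96e-04). *Nkx2-1*, a factor of lung, thyroid and ventral forebrain, had 0 counts in the ESC libraries and 4, 19, 25 and 9 counts in the NPC libraries, and was called higher (adjusted p = 0.00741).

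**Figure D4:**
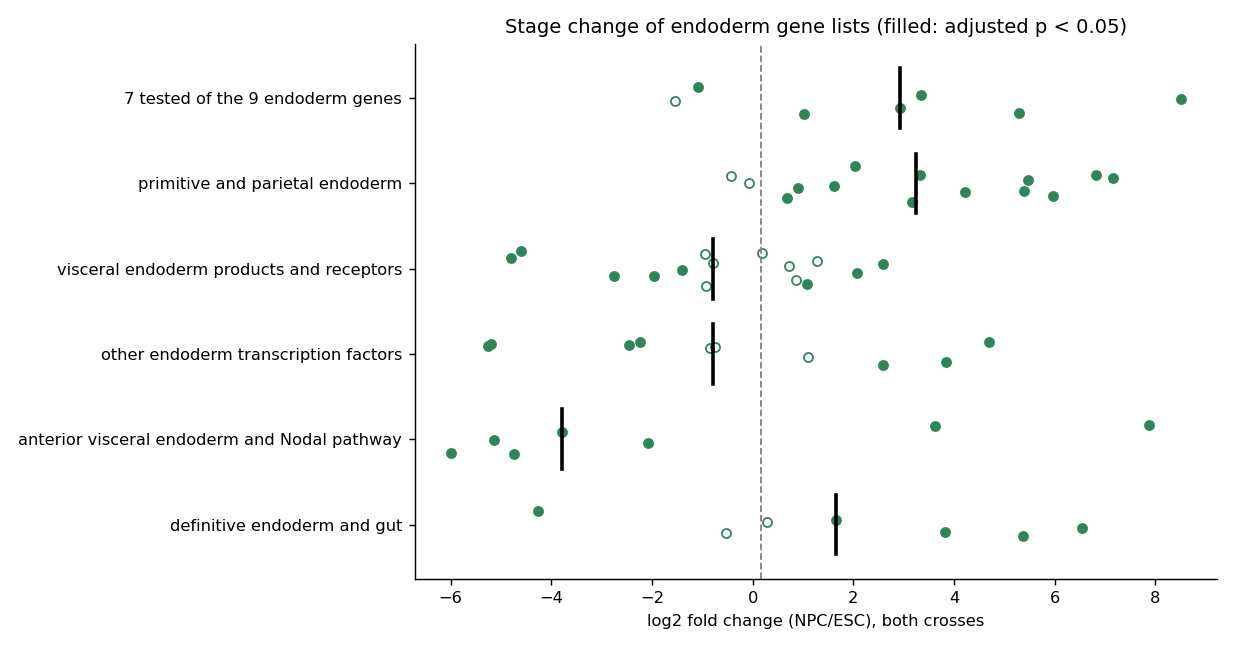
Log2 fold change of NPCs over ESCs for each gene tested (points, filled where the adjusted p is below 0.05) in the endoderm lists, with the median of each list (black bar) and that of all genes (dashed line, 0.17). The primitive and parietal list has a median of 3.24, whereas the visceral products, the other factors and the anterior list have medians of -0.79, -0.80 and -3.79. The positions of *Ttr* and *Nkx2-1* (the points farthest right in the first and last rows) depend on the prior count. So do those of *Cer1*, with 0 counts in J/B ESCs, and *Ahsg*, with 0 counts in B/J NPCs.

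Family and cluster relatives of the 9 genes showed which paralogues the cells used. Of 14 relatives, 7 were tested. Among GATA factors, *Gata2* and *Gata3*, both used by trophoblast, rose by 3.65 (adjusted p = 3.62e-04) and 5.69 (adjusted p = 1.14e-04). *Gata2* was at 175, 98.7, 46.6 and 43.1 CPM in B/J replicates 1 and 2 and J/B replicates 1 and 2 of the NPCs, and *Gata3* at 79.8, 50.7, 27.1 and 28.4 CPM. Both were thus higher in B/J, the reverse of *Gata4* and *Gata6*, though this difference between the crosses was not called (adjusted p = 0.763 and 0.770). *Gata1*, the erythroid factor, was at 1.13 (adjusted p = 0.116), and *Gata5* had at most 9 counts in a library. *Sox18*, the third SOXF gene, was at 1.16 (adjusted p = 0.0895). *Foxa3* fell by 2.46 (adjusted p = 0.00624), and *Hnf4g* had at most 2 counts in a library. In the albumin cluster of *Afp*, *Alb* had 1 count over all 8 libraries, *Afm* at most 2 counts in a library, and *Gc*, the vitamin D-binding protein gene, fell by 5.80 (adjusted p = 0.00144) from 36 to 98 counts in ESC libraries to 0 to 4 counts in NPC libraries. In the cluster of *Apoa1*, *Apoa4* had 0 counts in ESC libraries and 2 to 8 in NPC libraries, *Apoa5* at most 1 count, and *Apoc3* had 0 counts in all 8 libraries.

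Markers of other cell types that the cultures could hold, several of which use the same genes, were read beside them. Their counts of calls stand beside 37.5% of all genes called higher and 31.9% called lower. Of 7 floor plate genes, 6 were called higher in NPCs and 0 lower, and their summed level was 209 to 267 CPM in B/J NPCs and 306 to 547 CPM in J/B NPCs, beside 69.9 to 366 CPM in ESCs, a range that held all NPC libraries but J/B replicate 1. The ESC sums were nearly all *Ntn1* (66.7 to 364 CPM), and the other 6 genes summed to 2.03 to 6.19 CPM in ESCs, 115 to 153 CPM in B/J NPCs and 221 to 327 CPM in J/B NPCs, so that without it every NPC library was above every ESC library. *Shh*, the defining signal of the floor plate, was at 20.2, 18.7, 159 and 70.8 CPM in NPC B/J replicates 1 and 2 and J/B replicates 1 and 2, and at 0.0444 CPM or less in ESCs. *Foxa1* was at 10.1, 10.5, 39.9 and 16.5 CPM in the same order. Both were highest in J/B replicate 1, where *Foxa2* was also highest, but *Foxa1* is not in the floor plate list. Of the 7 genes of that list, 4 (*Shh*, *Ntn1*, *Spon1* and *Foxj1*) were highest in this library, whereas *Corin* was lowest there (23.6, 19.4, 3.94 and 12.1 CPM in the same order), and *Lmx1b* (17.8, 34.2, 32.7 and 34.8 CPM) and *Slit1* (25.3, 44.0, 53.8 and 56.8 CPM) were highest in J/B replicate 2. J/B replicate 1 was also the highest NPC library for 6 of 10 definitive endoderm and gut genes and 6 of 8 neural precursor genes. It was highest for 1 of the 10 trophoblast genes. Of 10 trophoblast genes, 9 were called higher and 0 lower, with sums of 52.1 to 171 CPM in ESCs, 1920 to 3652 CPM in B/J NPCs and 1327 to 1961 CPM in J/B NPCs. Of 8 endothelial genes, 4 were called higher and 2 lower, near the 37.5% and 31.9% of all genes, with sums of 45.7 to 109 CPM in ESCs, 527 to 982 CPM in B/J NPCs and 301 to 347 CPM in J/B NPCs. *Cdh5* alone made up 254 to 880 CPM of the NPC sums, and the other 7 genes summed to 45.6 to 108.7 CPM in ESCs and 41.6 to 102.6 CPM in NPCs. The result depends on the gene left out. Without *Pecam1*, the largest gene in ESCs, the sums were 16.1 to 24.1 CPM in ESCs and 293 to 956 CPM in NPCs.

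Of 8 cardiac genes, 6 were tested, and 4 were called higher and 2 lower, beside 37.5% and 31.9% of all genes. Their sums were 3.21 to 5.68 CPM in ESCs, 7.86 to 11.2 CPM in B/J NPCs and 14.6 to 14.7 CPM in J/B NPCs. Without *Actc1*, the largest in NPCs, the other 7 genes summed to 2.90 to 5.64 CPM in ESCs and 3.20 to 4.93 CPM in NPCs. Without *Myl7*, the largest in ESCs, the sums were 0.747 to 2.75 CPM in ESCs and 7.22 to 14.6 CPM in NPCs. *Tbx5* and *Nppa* were at 0 in all ESC libraries. Of 10 choroid plexus genes, 8 were tested, and 5 were called higher and 1 lower, beside the same shares of all genes. Their sums were 36.4 to 98.4 CPM in ESCs, 63.5 to 73.8 CPM in B/J NPCs and 69.3 to 119.9 CPM in J/B NPCs, and J/B replicate 2 alone lay above the ESC range. *Folr1* made up 21.3 to 95.8 CPM of the ESC sums, and the other 9 genes summed to 1.28 to 23.3 CPM in ESCs and 50.8 to 110.5 CPM in NPCs, where all 4 libraries were above the ESC range. Without *Enpp2*, the largest gene in NPCs, the stages overlapped, at 30.8 to 98.1 CPM in ESCs and 48.9 to 84.0 CPM in NPCs. The sum of all 10 genes was highest in NPC J/B replicate 2, where *Ttr* was also highest, as were 7 of the 10 genes. Of these, *Kl* had 9 counts there beside 2 to 5 in the other NPC libraries, and *Kcne2* 4 beside 1 to 3, with overlapping Poisson intervals. *Folr1* was lowest there (9.45 CPM beside 9.97 to 12.7), *Clic6* was highest in B/J replicate 2 (13.7 CPM) and *Lmx1a* in J/B replicate 1 (20.8 CPM). J/B replicate 2 was also the highest NPC library for 7 of the 9 endoderm genes and 9 of the 14 primitive and parietal endoderm genes. It was highest for 0 of the 10 trophoblast genes. Neural precursor genes summed to 646 to 996 CPM in ESCs, to 727 and 1479 CPM in B/J NPCs and to 1920 and 1728 CPM in J/B NPCs, so that NPC B/J replicate 1 lay inside the ESC range. Without *Sox2*, at 378 to 692 CPM in ESCs, the other 7 genes summed to 255 to 332 CPM in ESCs and 680 to 1682 CPM in NPCs. Without *Vim*, the largest gene in NPCs, the stages overlapped, at 457 to 805 CPM in ESCs and 290 to 1043 CPM in NPCs. Pluripotency genes summed to 4831 to 8219 CPM in ESCs, to 161 and 358 CPM in B/J NPCs and to 103 and 169 CPM in J/B NPCs. The part of any of these cell types in the levels of the 9 genes was not tested.

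The genes most like each endoderm gene over the 8 libraries were found by Pearson's r of log2 TMM-normalized CPM among 14081 genes with a mean of at least 1 CPM. These correlations describe 8 libraries that share 2 stages, and are given without a test. For *Gata4* they were *Aqp8* (0.92), *Lama1* (0.91) and *Hoxc6* (0.905), for *Gata6* 2310009B15Rik, *Myh3* and *Hkdc1* (each 0.98), and for *Sox17* *Kcnj11*, *Bdkrb2* and *Rab32* (each 0.99). *Lama1*, a laminin chain of the early basement membranes, was at 77.2 and 100.1 CPM in B/J NPCs and at 318 and 363 CPM in J/B NPCs, after 64.2 to 87.6 CPM in ESCs, and so had the pattern of *Gata4*. For *Foxa2* they were *Sclt1*, E130317F20Rik and *Myo5b* (each 0.99), for *Sox7* *Dusp28* (0.94), *Uty* (0.94) and *Ccdc151* (0.92), for *Hnf4a* *Pacsin1* (0.92), *Rassf10* (0.92) and A530040E14Rik (0.91), and for *Ttr* they included *Kctd16* (0.99) and *Dgki* (0.985).

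Upstream sequence was read for 8 of the 9 genes as the 250 bases before the start of the canonical transcript in GRCm39 and searched on both strands for 5 motifs, beside 19090 promoters of protein-coding genes of the same length. The letters TATAAA of the core promoter were found in the windows of *Afp* and *Foxa2* (10.58% of all promoters). The motif AACAAT of SOX factors was found in that of *Ttr* (8.36% of all). The motif AGATAA of GATA factors (8.81% of all), the forkhead motif TGTTTAC (2.56% of all) and the HNF4 motif CAAAGTCCA (0.39% of all) were in none of the 8. A match is a description of the letters and not a binding site. CG dinucleotides numbered 20 in the window of *Sox7*, 11 in *Gata6*, 8 in *Sox17*, 4 in *Hnf4a* and in *Ttr*, 3 in *Apoa1* and 1 in *Foxa2* and in *Afp*, beside a median of 9 over all promoters.

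The windows of *Foxa2* and *Afp* are shown 5′ to 3′ along the gene, as the pair with TATAAA and the fewest CG dinucleotides of the 8, and as the genes with the highest and the lowest NPC level per kilobase. Capitals mark TATAAA. In *Foxa2* (chr2:147889006-147889255, minus strand) it lies on the opposite strand at bases -168 to -163 from the start. In *Afp* (chr5:90638334-90638583, plus strand) it lies on the strand of the gene at -18 to -13.
Foxa2: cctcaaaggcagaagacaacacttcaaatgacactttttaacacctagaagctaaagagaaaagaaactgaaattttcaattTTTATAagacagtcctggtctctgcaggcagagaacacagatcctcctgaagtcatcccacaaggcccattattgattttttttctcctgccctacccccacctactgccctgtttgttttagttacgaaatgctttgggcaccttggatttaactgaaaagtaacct
Afp: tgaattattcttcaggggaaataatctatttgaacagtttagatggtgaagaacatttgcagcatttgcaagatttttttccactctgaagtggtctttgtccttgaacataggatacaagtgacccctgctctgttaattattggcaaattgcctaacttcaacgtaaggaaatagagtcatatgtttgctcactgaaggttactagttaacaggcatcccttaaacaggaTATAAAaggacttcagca
The window of *Afp* precedes a gene with 0 to 6 counts per library, and that of *Foxa2* a gene with 2 to 16 counts in ESC and 190 to 1153 counts in NPC libraries.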

How the data were processed

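Paired-end reads were mapped by the authors to an mm39 genome masked at strain SNPs (TopHat2), with only proper pairs of mapping quality 20 or more retained, and the deposited files hold raw counts of reads per gene, both alleles together, for 26263 genes and 5 closing entries of unassigned reads. Those entries, with 5.76% to 10.9% of a library without a gene, were left out. The submitters' processing notes also name HTSeq, DESeq2 and edgeR, but the sources do not give the counting mode or the use of strand. Each library was made with either of 2 kits and run on either of 2 instruments, with no record of which, so this could not be compared.

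CPM are counts over the reads counted on genes. Counts were fitted in R 4.3.3 with edgeR 4.0.16 (TMM, filterByExpr with a minimum count of 10, robust quasi-likelihood over all 8 libraries, threshold 0.05), tested on simulated data, with limma 3.58.1 and DESeq2 1.42.0 as alternatives, besides other scalings, other filters, replicate blocks, fits of only the 4 libraries compared and leaving out each library, where a library left alone in its group was given the spread of the rest. A replicate block within each stage, and list sums without their largest gene, were added after seeing the data. The members and lists were chosen with earlier results of these data known. Named were the 9 genes, their relatives, the 2 largest called rises and falls of each endoderm list, the 3 most similar genes and 5 label checks. *Apoe*, *Pdgfra*, *Dab2*, *Lamc1*, *Fst*, *Cubn*, *Rbp4*, *Shh*, the other floor plate genes, *Tbx5*, *Nppa*, *Folr1*, *Clic6*, *Lmx1a*, *Kl*, *Kcne2*, *Cdh5*, *Actc1*, *Pecam1*, *Myl7*, *Enpp2*, *Vim* and *Sox2* were named after their values were seen. Some genes and a sequence that this rule would name are not reported here. Positions, exon lengths and promoters came from GENCODE vM39 on GRCm39.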

Additional observations from a re-analysis of the deposited data

Results flagged for a closer look

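In 3 of the 16 sets of 4 libraries checked (9 genes in ESCs and in NPCs, without *Afp* and *Ttr* in ESCs, at 0 in every library), 1 library lay farther from its nearest neighbour, relative to the whole range, than Dixon's critical value of 0.829 allows. Chance alone sets off this check in about 1 of 20 sets drawn from a single normal distribution. CPM of both crosses together need not follow such a distribution, so the rate here may differ. *Foxa2* was at 35.3 CPM in NPC J/B replicate 1, beside 7.15 to 11.7 CPM in the other NPC libraries (gap over range 0.836). *Hnf4a* was at 4.30 CPM in ESC J/B replicate 1, beside 0.189 to 0.392 CPM in the other ESC libraries (0.951). *Ttr* was at 12.5 CPM in NPC J/B replicate 2, beside 0.0974 to 1.05 CPM in the other NPC libraries (0.923). All 3 libraries were J/B libraries, of different stages or replicates.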

How the results depend on the processing

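Over both crosses, the changes of *Gata6*, *Sox17* and *Foxa2* kept their direction and their call in all 17 alternatives, and *Gata4* kept its direction with a lost call in 4 of them. *Hnf4a* lay between -2.01 and 0.26 when each library was left out. Within B/J, *Gata4* was 0.24 with library totals, 0.25 with housekeeping scaling and 0.12 with a replicate block within each stage, and between -0.79 and 0.20 when each library was left out. Within J/B, *Sox7* was 0.42 with library totals and 0.70 with housekeeping scaling, and leaving out each library gave -0.49 to 0.23 for *Sox7* and -2.73 to 1.83 for *Hnf4a*. The genes called within J/B numbered 8935 with all libraries and 5700 to 8475 with each left out, the lowest without NPC J/B replicate 2. The interaction of *Sox17* was 0.031 with housekeeping scaling, and leaving out each library gave -0.62 to 0.11 for *Sox17* and -0.72 to 1.82 for *Foxa2*. Between the crosses, leaving out each library gave -0.93 to 3.63 for *Hnf4a* in ESCs and -0.35 to 5.86 for *Ttr* in NPCs. The cause of these turns was not tested.

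DESeq2 called 11 genes in the interaction, 10 between the crosses in ESCs and 70 in NPCs, 1 of them an endoderm gene, *Gata4* in NPCs, where edgeR called 0, 0 and 1. With no low-count filter edgeR called 2 genes in ESCs and 5 in NPCs. The 1 gene in NPCs fell to 0 with library totals, housekeeping scaling, a replicate block or only the 4 libraries compared, lay between 0 and 1 with each library left out, and became 4 with a replicate block within each stage.

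Same-numbered replicates deviated together within a stage (correlation of replicate differences over genes 0.52 in ESCs and 0.59 in NPCs) but not across stages (0.05 to 0.09), so the numbers were not taken to pair ESCs with NPCs. With the replicate block, 12010 genes and 6 of the endoderm genes were called between the stages, beside 11378 and 6 without it, and within B/J *Ttr* was called (adjusted p = 0.0153). The block within each stage also called *Hnf4a* (-2.80, adjusted p = 0.0457).

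Depth limits *Afp* and *Apoa1*, which have at most 6 counts in a library, and with 2 replicates a group no change within a cross can be checked beyond its pair of libraries.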
